A study of Mus musculus with 13 samples.

Results

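The comparison described here is the difference between 2 interferon responses of intestinal gamma delta T cells: the change with interferon alpha (IFNa) after the antibody UC7-13D5, minus the change with IFNa after control IgG. It was chosen as a contrast of the 4 groups of the experiment, and it used all 13 of the 13 libraries. Of 15835 genes tested, the 15318 on chromosomes 1 to 19 are reported. The difference has a second reading, as the gap between the arms with IFNa (the induced level, UC7-IFNa minus IgG-IFNa) minus the gap with saline (the starting level, UC7-PBS minus IgG-PBS). A positive difference can therefore come from a higher induced level, a lower starting level, or both.

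Gamma delta intraepithelial lymphocytes (IELs) were isolated from wild-type (WT) mouse small intestine and sorted. Mice in all groups carried an injected hamster antibody: 200 µg of UC7-13D5, which recognizes their gamma delta T cell receptor (TCR), or 200 µg of Armenian hamster IgG, given intraperitoneally. The labels' protocols place these injections 48 and 24 hours ahead of cell isolation, while the design text gives 48 or 24 hours ahead of IFNa. All mice then received an intravenous injection 5 hours before isolation, of 1 µg murine IFNa or of phosphate buffered saline (PBS). The IgG-PBS, UC7-PBS and UC7-IFNa groups held 3 libraries each and IgG-IFNa held 4, labelled as biological replicates. Whether a library is 1 mouse or several is not given in the sources used here.

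Type I interferons bind the receptor made of Ifnar1 and Ifnar2, which activates the kinases Jak1 and Tyk2. A complex that holds Stat2 and Irf9 then binds interferon-stimulated response elements next to a large set of genes whose products degrade or modify viral RNA, sense nucleic acids or restrict entry and release of viruses. Usp18 and the suppressors of cytokine signalling limit the same pathway. Gamma delta intraepithelial lymphocytes patrol the intestinal epithelium and are known for interferon-dependent support of epithelial resistance to viruses.

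Libraries held between 19867201 and 26895876 estimated counts. Trdc, which encodes the delta chain constant region and defines the labelled cell type, lay between 158.8 and 210.5 CPM, which is counts scaled to library size (per 1e6), in every library. Levels below are CPM scaled by the trimmed mean of M values (TMM), and differences are log2 values with their standard errors (SE). UC7-IFNa library 2 stood apart. Across genes, its correlation in log2 CPM was 0.940 and 0.943 with the other 2 UC7-IFNa libraries, which had one of 0.984 with each other, and the ribosomal RNA gene Rn18s took 1.14% of its counts against 0.0866% to 0.333% in the other 12. Results that turn on it are given with and without it. Sex-linked transcripts also coincided with the groups: Y-linked CPM were at most 0.31 in IgG-PBS, at least 132 in every UC7 library, and ranged from 1.67 to 320.3 within IgG-IFNa. Sex-linked transcripts and antibody cannot be told apart in the starting level. In IgG-IFNa, Y-linked CPM were 2.15 and 1.67 in libraries 1 and 2, and 210 and 320.3 in libraries 3 and 4. Xist, the X-linked transcript of females, stood at 68.29 and 23.42 CPM in libraries 3 and 4, against at most 1.083 CPM in any UC7 library. Libraries 3 and 4 thus held both kinds of sex-linked transcript, and whether they hold cells of several mice was not tested. Sex-linked transcripts thus also coincided in part with the induced level and with the change with IFNa after IgG. The difference of responses holds both.

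No autosomal gene passed an adjusted p of 0.05 for the difference of responses in either direction (edgeR quasi-likelihood test, Benjamini-Hochberg over all genes, smallest adjusted p 0.99994). At an unadjusted p under 0.05, 235 autosomal genes had a positive difference, 1.53% of those tested, and 251 had a negative one, 1.64%. Values were spread around 0, with 8008 genes (52.3%) above it and a median of 0.02. The median SE of the difference was 0.27 among the 9078 genes whose mean log2 CPM reached 3. Without UC7-IFNa library 2, 15697 autosomal genes were tested and again none passed, with a smallest adjusted p of 0.17. In that fit 223 genes (1.42%) had an unadjusted p under 0.05 with a positive value and 475 (3.03%) with a negative one.

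DESeq2, run as an alternative on all 13 libraries, called 2 autosomal genes with a positive difference and 1 with a negative one. They were St8sia1, a ganglioside sialyltransferase, at 2.10 (SE 0.48, DESeq2 adjusted p = 0.0458), the predicted gene Gm49510 at 8.11 (SE 1.84, DESeq2 adjusted p = 0.0432) and the peptide transporter Slc15a2 at -9.12 (SE 1.87, DESeq2 adjusted p = 0.0159). St8sia1 and Gm49510 are named here after their values were seen. St8sia1 stood at 6.61, 6.06 and 11.06 CPM in IgG-PBS and between 2.09 and 2.94 CPM in UC7-PBS and IgG-IFNa, with 5.75 CPM in UC7-IFNa library 2 against 2.36 and 2.78 in its mates. Its positive value thus lay mostly in the starting level. Gm49510 had 0 counts in all 3 UC7-PBS libraries and at most 22 in any library, so its fitted value rests on a group without counts and is no bound.

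Each arm had an interferon response of its own. After IgG, 97 autosomal genes rose with IFNa (0.633%) and 32 fell (0.209%) at an adjusted p of 0.05, and after UC7-13D5, 52 rose (0.339%) and 4 fell (0.0261%). These counts come from different numbers of libraries and are not a test of the difference. Among the 55 tested antiviral effectors, 19 rose after IgG and 27 after UC7-13D5, with median changes of 0.99 and 1.70. All arms share 1 estimate of the spread, and without UC7-IFNa library 2 the calls after IgG were 294 that rose (1.87%) and 126 that fell (0.803%), and after UC7-13D5 94 (0.599%) and 13 (0.0828%). In that fit 31 antiviral effectors rose after IgG and 33 after UC7-13D5, with median changes of 0.99 and 1.60. Most of these effectors lay above the line of equal response.

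**Figure D1:**
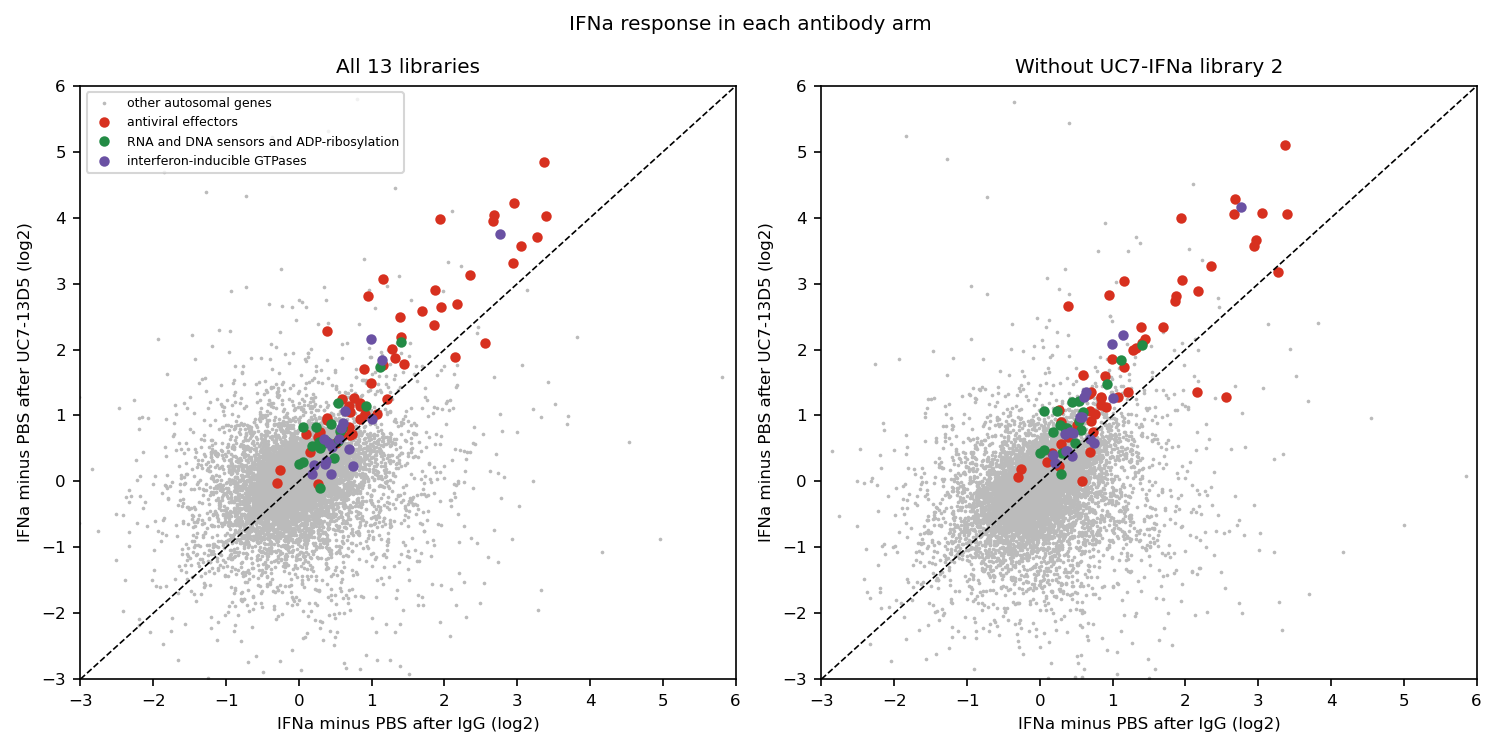
The change with IFNa after UC7-13D5 (vertical axis, log2) against the change after IgG (horizontal axis, log2) for autosomal genes, with 3 interferon gene lists in colour and the dashed line of equal response. 45 genes in the left panel and 76 in the right panel lie outside the axes. Of 55 antiviral effectors, 49 lie above the line in each panel.

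The antiviral effectors are interferon-stimulated genes whose products act on viruses directly. None of the 55 passed the test of the difference, 49 had a positive value beside 52.3% of all autosomal genes, and 15 had an unadjusted p under 0.05 with a positive value beside 1.53% of all. The latter count was 8 without IgG-PBS library 3, 8 without IgG-IFNa libraries 3 and 4, 7 with the male share as a covariate and 9 with the replicate block. Over all autosomal genes such calls also fell with the male share and with the replicate block, with the counts given in the processing section. The share of 1.53% belongs to the main fit alone. No share over all genes is given for the other 2 fits, so a loss particular to the effectors cannot be read from their counts. Without IgG-PBS library 3 the median difference of the effectors was 0.47, against 0.01 over all autosomal genes. Without IgG-IFNa libraries 3 and 4 it was 0.37 against 0.03, with the male share 0.41 against 0.02, and with the replicate block 0.35 against 0.01. In the main fit the effectors had a median difference of 0.50, against 0.02 over all autosomal genes. Split into its parts, the median induced gap was 0.35 and the median starting gap was -0.20. Of the 49 members with a positive difference, 23 owed at least 66.7% of it to the induced level, 14 owed no more than 33.3% to it, and 12 lay between.

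Rtp4, a receptor-transporting protein with antiviral activity, had the smallest unadjusted p for a positive difference among autosomal genes whose mean log2 CPM reached 3 (chr16:23339041-23432972, mm39). With PBS it stood at 51.4, 50.1 and 52.2 CPM after IgG and at 29.1, 48.8 and 33.6 CPM after UC7-13D5. With IFNa it stood at 193.4, 222.2, 210.3 and 123.2 CPM after IgG and at 276.3, 310.0 and 245.9 CPM after UC7-13D5. Both gaps were complete: every UC7-PBS library lay below every IgG-PBS library, and every UC7-IFNa library lay above every IgG-IFNa library. The difference of responses was 1.03 (SE 0.30, 95% interval 0.40 to 1.66, unadjusted p = 0.0033), made of an induced gap of 0.57 and a starting gap of -0.47. Without UC7-IFNa library 2 it was 0.94.

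Xaf1, a pro-apoptotic interferon-stimulated gene, showed the same arrangement (chr11:72192455-72204559). It stood at 32.7, 33.1 and 28.4 CPM in IgG-PBS and at 21.2, 27.2 and 28.1 CPM in UC7-PBS. With IFNa the levels were 68.6, 76.2, 92.4 and 68.4 CPM after IgG and 108.4, 104.6 and 96.1 CPM after UC7-13D5. The groups did not overlap in either gap, though the highest UC7-PBS library lay just under the lowest IgG-PBS library. The difference was 0.73 (SE 0.22), of which 58.9% came from the induced level.

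Mx1 encodes a dynamin-like GTPase that blocks viral ribonucleoproteins and is annotated as a polymorphic pseudogene in the deposited table. Its level was low, at 0.78, 1.24 and 1.96 CPM in IgG-PBS and 0.48, 1.02 and 0.80 CPM in UC7-PBS. With IFNa it stood at 2.53, 3.45, 4.42 and 1.42 CPM after IgG and at 6.74, 6.56 and 6.06 CPM after UC7-13D5. Its induced groups did not overlap, while its starting groups did. The difference was 1.91 (SE 0.58), and 58.8% of it lay in the induced level.

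Ifit3, which binds viral RNA complexes, carried more of its difference in the starting level (chr19:34560931-34566131). It stood at 3.66, 4.25 and 6.19 CPM in IgG-PBS and at 2.76, 2.53 and 1.44 CPM in UC7-PBS, with no overlap. With IFNa the values were 49.9, 63.9, 47.7 and 33.3 CPM after IgG and 79.3, 37.2 and 76.3 CPM after UC7-13D5. UC7-IFNa library 2 was the low one. The difference was 1.47 (SE 0.44) with 27.3% from the induced level. Without that library it was 1.74 (SE 0.37), the induced groups separated, and the induced share was 38.1%.

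Bst2, the tether that holds budding virions on the cell surface, carried most of its difference in the induced level (chr8:71986899-71990100). Its starting levels overlapped, at 26.0, 23.7 and 24.3 CPM in IgG-PBS and 15.7, 27.8 and 22.7 CPM in UC7-PBS. The induced levels were 78.5, 78.3, 96.1 and 65.6 CPM after IgG and 115.9, 171.6 and 110.0 CPM after UC7-13D5, without overlap. Of a difference of 0.89 (SE 0.29), 82.2% lay in the induced level. UC7-IFNa library 2 was the highest here, and without it the difference was 0.66.

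Oas3, which makes the oligoadenylate messenger that activates RNase L, had a difference of 1.35 (SE 0.58). It went from 8.02, 5.26 and 10.69 CPM to 53.2, 86.5, 44.5 and 21.1 CPM after IgG. After UC7-13D5 it went from 3.50, 7.07 and 4.82 CPM to 116.4, 51.5 and 84.6 CPM. Both pairs of groups overlapped.

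**Figure D2:**
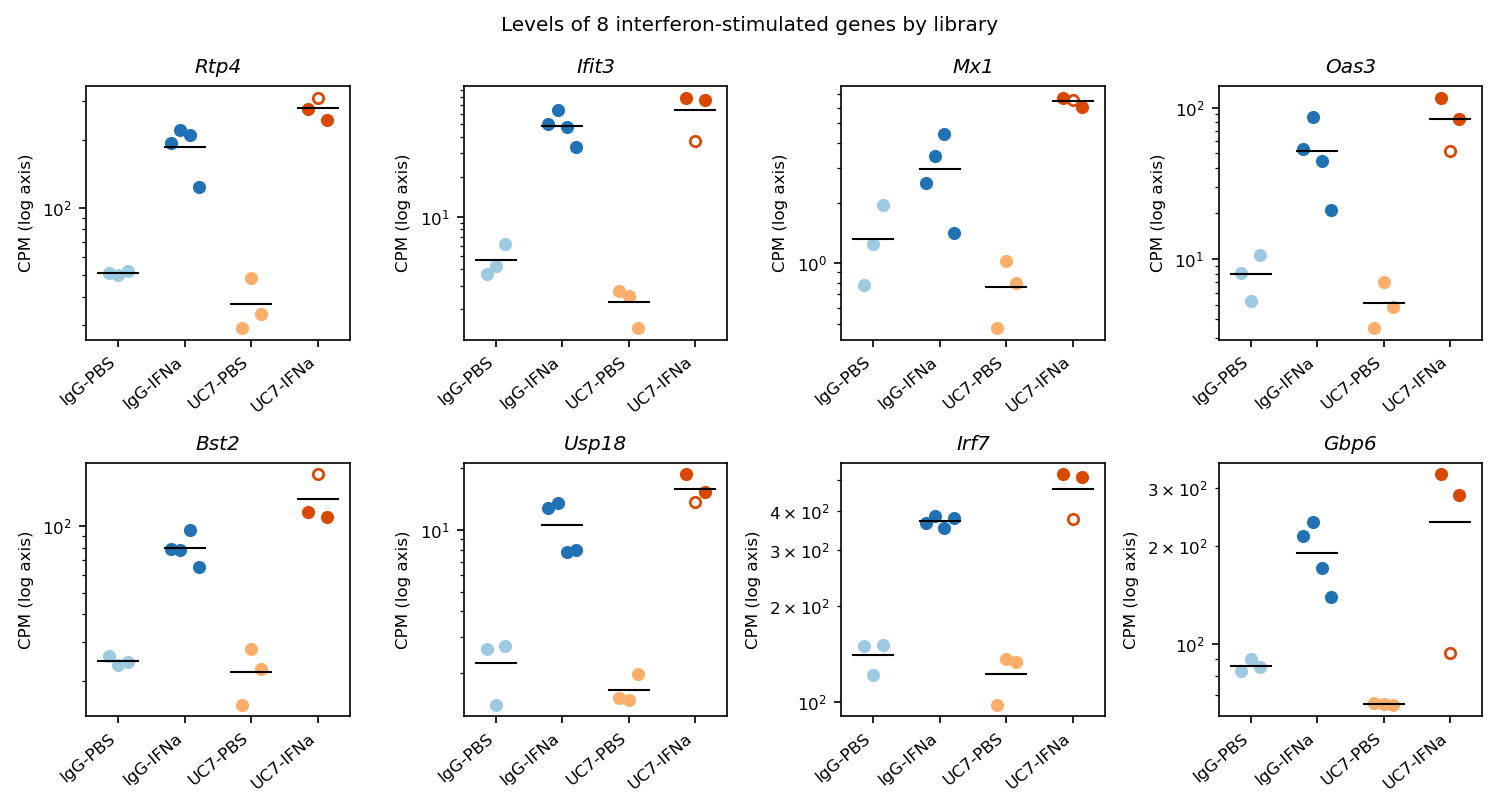
Level of 8 interferon-stimulated genes in each library (CPM, log axis), by group; each point is 1 library, the line is the group mean, and the open circle is UC7-IFNa library 2. Rtp4, Mx1, Bst2 and, only just, Usp18 have all 3 UC7-IFNa libraries above the 4 IgG-IFNa libraries. The open circle is the lowest UC7-IFNa point for Ifit3, Oas3, Usp18, Irf7 and Gbp6.

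Counted over the list, 14 of 55 antiviral effectors had every UC7-IFNa library above every IgG-IFNa library, beside 3.78% of autosomal genes, and 9 had every UC7-PBS library below every IgG-PBS library, beside 5.8%. Both held for 3 members, Oas1a, Rtp4 and Xaf1, beside 0.0783% of autosomal genes. Without UC7-IFNa library 2 the first count was 26 (8.89% of autosomal genes) and both held for 6 members (0.261%), the others being Ifit3, Ifi213 and Slfn8. In that fit the median difference was 0.66, with 49 members above 0, beside 49.3% of autosomal genes. A positive value at an unadjusted p under 0.05 was found for 22 members, beside 1.42% of autosomal genes. The induced and starting medians were 0.38 and -0.20. Members whose difference lay mostly in the starting level numbered 6 without the library and 14 with it.

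Not every effector had a positive value. Ifitm3, which blocks viral fusion in endosomes, stood at 0.22, 0.96 and 1.06 CPM in IgG-PBS and at 1.56, 2.90 and 1.29 CPM in UC7-PBS. Its induced levels were 4.63, 3.56, 5.65 and 3.75 CPM after IgG and 4.88, 15.4 and 4.47 CPM after UC7-13D5. Its difference was -0.45 (SE 0.72), and -1.27 without UC7-IFNa library 2, with the gap in the starting level. The gene is named after its values were seen. Ifi27l2a, a small mitochondrial interferon-stimulated protein, was among the most strongly induced genes, with changes of 3.27 after IgG and 3.71 after UC7-13D5, both past an adjusted p of 0.05. Its difference of 0.43 (SE 0.49) became -0.10 without the library. Isg15, a ubiquitin-like modifier, had differences of 0.50 and 0.26 with and without it.

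The promoters of the antiviral effectors were searched for the core of the interferon-stimulated response element. The pattern, GAAA and GAAA with any 2 bases between them, was read on both strands (matches may overlap) of the 250 bases before each start site in RefSeq's promoters for GRCm38.p6, and 936 of 27025 genes (3.463%) held it. Of the 44 antiviral effectors with an entry, 23 held it, as did 9 of 10 interferon-inducible GTPases, 2 of 14 sensors and 3 of 18 receptor, STAT and IRF genes. The windows below show it in 6 effectors that differ in where their positive value lay, and the capitals mark the matched bases. A match is a description of the letters and not evidence of binding.

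Ifit3 (chr19:34583358-34583431, GRCm38.p6, plus strand): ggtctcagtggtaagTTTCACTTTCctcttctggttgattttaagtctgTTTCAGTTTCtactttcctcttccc
Ifit1 (chr19:34640770-34640828, GRCm38.p6, plus strand): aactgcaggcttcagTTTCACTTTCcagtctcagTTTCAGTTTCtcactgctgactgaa
Bst2 (chr8:71537572-71537617, GRCm38.p6, minus strand): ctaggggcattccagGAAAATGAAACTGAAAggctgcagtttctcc
Oas3 (chr5:120777710-120777749, GRCm38.p6, minus strand): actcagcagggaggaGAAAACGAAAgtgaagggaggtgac
Slfn8 (chr11:83020834-83020873, GRCm38.p6, minus strand): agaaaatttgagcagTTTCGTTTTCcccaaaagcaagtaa
Isg15 (chr4:156200860-156200911, GRCm38.p6, minus strand): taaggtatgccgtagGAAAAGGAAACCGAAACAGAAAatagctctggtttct

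Bst2, with its value mostly in the induced level, and Ifit3, with more in the starting level, both hold 2 matches. Isg15 holds 3 and Oas3 and Slfn8 hold 1 each. Also searched were the 10 genes per direction with smallest unadjusted p among autosomal genes whose mean log2 CPM reached 3, clone names aside. Genes with smaller p outside that filter were passed over. Of the 10 with a positive difference, 2 of the 8 with an entry held the pattern. Of the 10 with a negative difference, 0 of 8 did. In these 6 genes the number of matches did not follow which part was larger.

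Nucleic acid sensors and ADP-ribosylating enzymes followed the effectors with smaller values. None of 19 tested passed, and 17 were above 0, beside 52.3% of autosomal genes. The median difference was 0.24, with 0.22 in the induced level and -0.03 in the starting level. Without UC7-IFNa library 2 the median was 0.47, 18 were above 0 and 10 had a positive value at an unadjusted p under 0.05, beside 1.42% of autosomal genes. With all libraries 2 did, beside 1.53%. Zbp1, a sensor of Z-form nucleic acid, stood at 173.0, 183.5, 162.5 and 112.8 CPM in IgG-IFNa and at 225.3, 229.4 and 198.0 CPM in UC7-IFNa. Its starting levels were 64.8, 55.5 and 59.6 CPM after IgG and 41.8, 55.3 and 52.9 CPM after UC7-13D5. Neither pair of groups overlapped, though the starting groups were only just apart, and the difference was 0.72 (SE 0.24) with all libraries and 0.68 without library 2.

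Mov10, an RNA helicase, had a difference of 0.65 (SE 0.27) that lay almost wholly in the induced level. It stood at 34.3, 49.4, 40.9 and 31.6 CPM in IgG-IFNa and at 63.9, 57.1 and 59.0 CPM in UC7-IFNa, while its starting gap was -0.03. Dhx58 and Parp12, regulators of RNA sensing named after their values were seen, had differences of 0.62 and 0.77. Pml, which organizes nuclear bodies, had a difference of 0.59, and 0.84 without library 2, with a starting gap of 0.00 in both fits.

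The interferon-inducible GTPases, which attack pathogen vacuoles, gave different counts with and without UC7-IFNa library 2. With it 11 of 18 had a positive value, beside 52.3% of autosomal genes, and the median was 0.08. A positive value at an unadjusted p under 0.05 was found for 1, beside 1.53% of autosomal genes. Without it 15 of 18 had a positive value, beside 49.3% of autosomal genes, and the median was 0.30. In that fit 5 had one at an unadjusted p under 0.05, beside 1.42%, still with none past the adjusted threshold. Their summed level was 3567 and 3400 CPM in UC7-IFNa libraries 1 and 3 but 1661 CPM in library 2, below the 1715 to 2033 CPM of UC7-PBS. The summed antiviral effectors of library 2 were the highest of any library, at 9114 CPM against 8608 and 7790 CPM in its mates. A sum weights abundant genes. By the mean log2 CPM of the same list library 2 lay below its mates, at 4.78 against 5.19 and 4.97. IgG-IFNa lay at 4.31 to 4.92.

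Gbp6 showed the pattern. It stood at 82.6, 90.2 and 85.1 CPM in IgG-PBS and at 66.0, 65.8 and 65.5 CPM in UC7-PBS, without overlap. With IFNa it stood at 213.7, 235.5, 171.2 and 139.6 CPM after IgG and at 331.1, 93.7 and 285.3 CPM after UC7-13D5. Its difference was 0.70 (SE 0.44) with all libraries and 1.08 (SE 0.23) without library 2, of which 63.7% lay in the induced level. Gbp10, a near relative whose reads may be shared with it, had differences of 0.99 and 1.39. Iigp1, an immunity-related GTPase, had a difference of 1.17 with all libraries and 1.11 without library 2.

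Signal transducers and inhibitors of the pathway had values closer to 0. Of 19 receptor, STAT and IRF genes, 12 were above 0, with a median of 0.08, and 13 with a median of 0.07 without library 2. Over all autosomal genes 52.3% were above 0, and 49.3% without library 2. Irf7, the factor that amplifies interferon production, was the member with the highest value. It stood at 150.3, 121.6 and 150.8 CPM in IgG-PBS and 98.0, 135.9 and 133.3 CPM in UC7-PBS. With IFNa the levels were 365.7, 385.4, 352.5 and 380.2 CPM after IgG and 522.5, 377.5 and 509.7 CPM after UC7-13D5. Library 2 alone lay inside the IgG-IFNa range, and the difference was 0.54 (SE 0.23) with it and 0.67 (SE 0.19) without it. Irf9, the DNA-binding subunit of that complex, had a difference of 0.50 (SE 0.20). Among 10 feedback inhibitors the median was 0.06, and 0.13 without library 2. Usp18, which cuts ISG15 from its targets and blocks the receptor, had a difference of 1.04 (SE 0.41), standing at 12.7, 13.6, 7.78 and 8.0 CPM in IgG-IFNa and at 18.8, 13.6 and 15.4 CPM in UC7-IFNa. Its induced groups were just apart. Socs1, another brake on cytokine receptors, had IFNa changes of -0.62 after IgG and 0.04 after UC7-13D5, neither past the threshold, and a difference of 0.66. Without library 2 it fell with IFNa after IgG by 0.62 (edgeR adjusted p = 0.0115), its change after UC7-13D5 was -0.34, and the difference was 0.28. Class I antigen processing genes, of which 19 of 24 were above 0 beside 52.3% of autosomal genes, had a median of 0.19, and 0.10 without library 2.

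**Figure D3:**
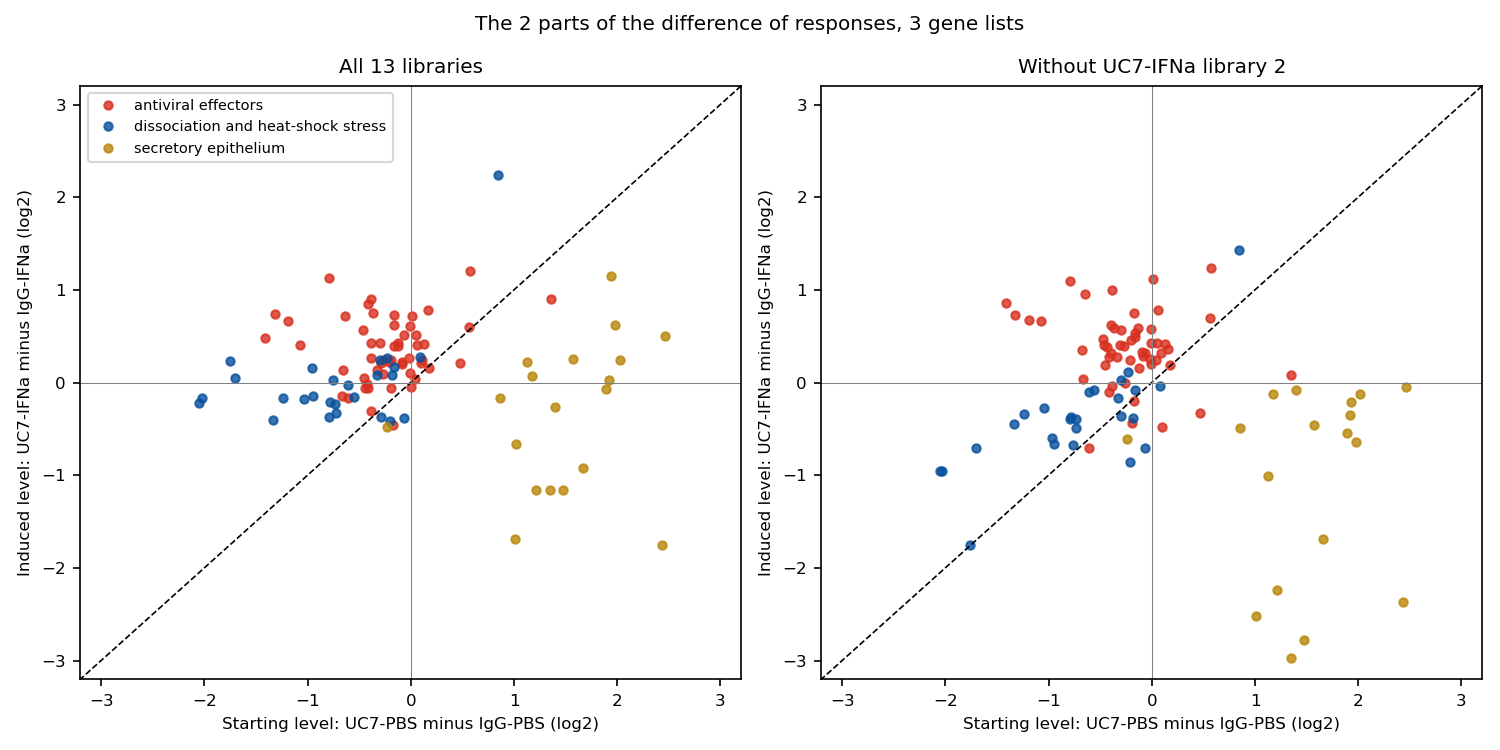
The induced gap (UC7-IFNa minus IgG-IFNa, vertical axis, log2) against the starting gap (UC7-PBS minus IgG-PBS, horizontal axis, log2) for members of 3 lists; the dashed line is a difference of 0, and 1 member in the left panel and 2 in the right panel lie outside the axes. Antiviral effectors sit mostly above 0 on the vertical axis, stress genes lie mostly left of 0, and all but 1 of the secretory epithelium markers lie right of 0.

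Stress genes had positive values that lay in the starting level. Immediate early and heat-shock genes, which respond to tissue dissociation, had a positive value in 23 of 26 members, beside 52.3% of autosomal genes. Their median was 0.56, beside 0.50 for the antiviral effectors, and 0.34 without library 2. Their median starting gap was -0.73 and their median induced gap was -0.15, and -0.39 without library 2. Of the list, 20 of 26 had every UC7-PBS library below every IgG-PBS library, beside 5.8% of autosomal genes. Of the 23, 2 owed at least 66.7% of their value to the induced level and 18 no more than 33.3%. Dnajb1, a co-chaperone of Hsp70, stood at 1152, 861.0 and 1164 CPM in IgG-PBS and at 466.1, 232.2 and 278.0 CPM in UC7-PBS. With IFNa its groups overlapped, at 292.6, 671.2, 310.5 and 529.6 CPM after IgG and 249.8, 844.7 and 309.7 CPM after UC7-13D5. Its difference was 1.76 (SE 0.56), with 3.0% from the induced level. Leaving out UC7-IFNa library 2 gave 1.00 (SE 0.49), with an induced gap of -0.70.

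The summed level of this stress list was 22850 to 27311 CPM in IgG-PBS and lower in all other groups, at 13565 to 20081 CPM in IgG-IFNa, 14750 to 17751 CPM in UC7-PBS and 13443 to 19326 CPM in UC7-IFNa. IgG-PBS thus stood apart from the other 3 groups, and IgG-PBS is the baseline of the IgG response. Jun and Fos, subunits of the AP-1 factor, had starting gaps of -1.24 and -0.79 and differences of 1.07 and 0.41. The part of the stress genes in the values of the interferon genes was not tested.

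Markers of secretory epithelium went the other way. They were present in all groups, with no member at 0 in every library, and their summed level was 124 to 829 CPM in IgG-PBS, 792 to 1532 CPM in IgG-IFNa, 1042 to 2651 CPM in UC7-PBS and 424 to 1321 CPM in UC7-IFNa. All 19 tested had a negative difference, with a median of -1.79, a median starting gap of 1.47 and a median induced gap of -0.17, and 7 had an unadjusted p under 0.05, beside 1.64% of autosomal genes. 11 of 19 had every UC7-PBS library above every IgG-PBS library, beside 6.64% of autosomal genes. Without UC7-IFNa library 2 the median was -2.43 and 14 of 19 had a negative value at an unadjusted p under 0.05, beside 3.03% of autosomal genes. The median induced gap was then -0.61, with all 19 below 0. Lyz1, the Paneth cell lysozyme, stood at 7.21, 139.7 and 54.5 CPM in IgG-PBS and at 713.8, 181.6 and 195.3 CPM in UC7-PBS. With IFNa it stood at 250.7, 93.2, 204.5 and 151.7 CPM after IgG and at 22.6, 88.1 and 45.6 CPM after UC7-13D5. Zg16, a goblet cell lectin, had a difference of -1.96 (SE 0.59). In sorted cells, fewer epithelial cells and less RNA per cell cannot be told apart, and the part of these markers in other results was not tested. Among absorptive enterocyte markers 14 of 23 were below 0 and 9 above it, where 52.3% of autosomal genes lay. Their median was -0.24, and -0.69 without library 2.

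**Figure D4:**
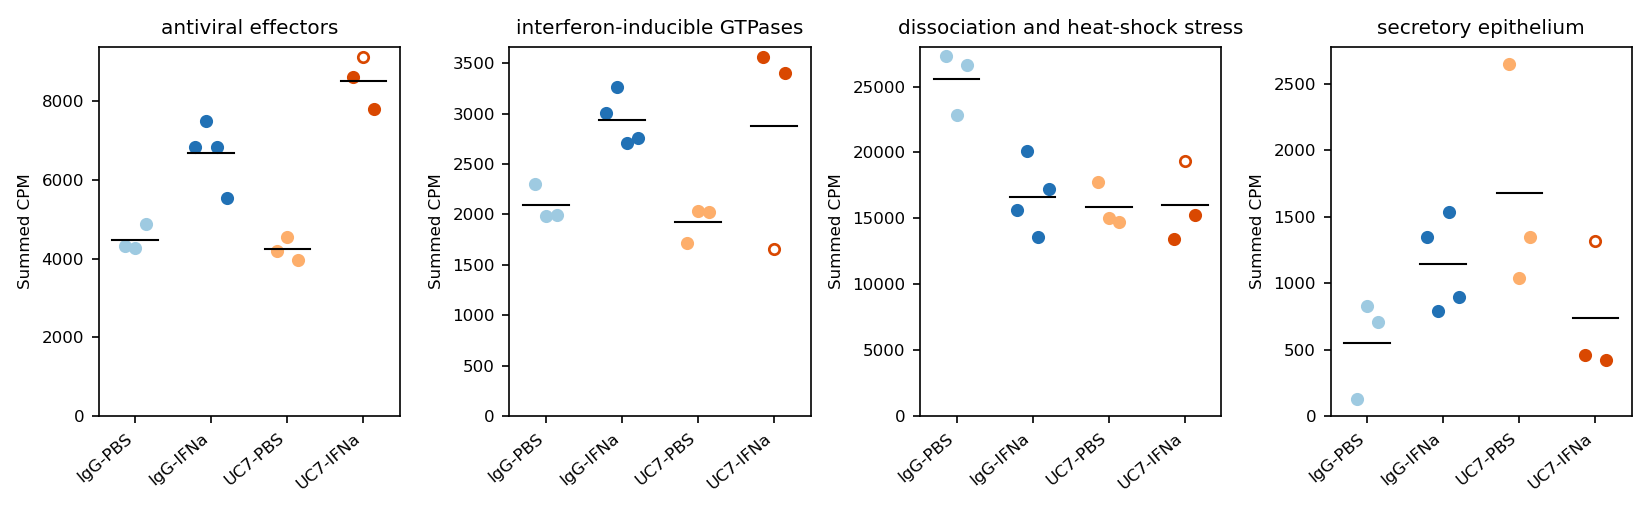
Summed CPM of 4 gene lists in each library, by group, with the group mean as a line and UC7-IFNa library 2 as the open circle. IgG-PBS holds the 3 highest stress sums and the lowest secretory epithelium sum, and the open circle is low for GTPases and high for the sum, though not the mean log2 CPM, of antiviral effectors.

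Lymphocyte genes gave a mixed picture. Natural killer receptors had a median of -0.38 with 13 of 17 below 0, and inhibitory receptors a median of -0.28 with 12 of 16 below 0. In each list 4 lay above 0, as did 52.3% of autosomal genes. Without UC7-IFNa library 2 the medians were -0.27 and -0.12. Ctla4, an inhibitor of costimulation, stood at 143.6, 195.6 and 140.5 CPM in IgG-PBS and at 212.8, 284.3 and 173.9 CPM in UC7-PBS. It then stood at 197.5, 197.0, 186.8 and 181.2 CPM in IgG-IFNa and at 164.9, 119.2 and 156.6 CPM in UC7-IFNa, where every UC7-IFNa library was below every IgG-IFNa library, an arrangement that 2.99% of autosomal genes had, and 7.29% without library 2. The difference was -0.86 (SE 0.26), and 43.7% of it lay in the induced level. Klrc1, the NKG2A subunit, had a difference of -1.25 (SE 0.50) that lay in the starting level, at 67.8, 64.0 and 23.4 CPM in UC7-PBS against 11.4, 15.3 and 21.3 CPM in IgG-PBS. It fell with IFNa after UC7-13D5 by 1.85 (edgeR adjusted p = 0.0474), and its IFNa change after IgG was -0.60. That call was lost without UC7-IFNa library 2, at -1.70 (edgeR adjusted p = 0.162).

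TCR-induced early genes had a median of 0.09, and -0.05 without library 2. Of the 40, 14 lay wholly below IgG-PBS in UC7-PBS, beside 5.8% of autosomal genes, and 5 lay wholly above it, beside 6.64%. Some TCR-induced early genes also belong to the stress list. Nr4a3, a nuclear receptor induced by TCR signalling, had a difference of -0.36, and -0.89 (SE 0.21) without library 2. Nr4a2, named after its values were seen, had -0.65 in the full fit and -0.61 without the library. Slc15a2 had 1, 0 and 1 counts in IgG-PBS, 4, 469 and 561 in UC7-PBS, and at least 181 in every IFNa library. Its fitted difference of -8.85 rests on a baseline of almost no counts, and it passed edgeR's test when UC7-PBS library 1 was left out (-9.43, adjusted p = 0.0014).

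Outside the interferon genes and clone names, the lowest unadjusted p-values at a mean log2 CPM of at least 3 had negative differences. They belonged to Slc15a2, the defensin Defa5 at -4.32 (SE 1.08), Fcgbp at -1.79 (SE 0.52) and Muc13 at -1.83 (SE 0.54). Fcgbp is a secretory epithelium marker, as is Zg16, and Lyz1 was also among the 10 lowest with a negative difference. Those with a positive difference were of varied function. None passed the adjusted threshold. Smad3, a transducer of TGF-beta signals, had a difference of 1.00 (SE 0.30), of which 81.7% lay in the induced level. It stood at 6.13, 8.09, 4.66 and 7.50 CPM in IgG-IFNa and at 11.58, 12.78 and 10.62 CPM in UC7-IFNa, with no overlap. Mmp11, a stromelysin, had 1.13, divided between both parts. The histone genes H1f2 and H2bc4 had 1.13 and 1.74, and 0.79 and 0.98 without UC7-IFNa library 2. In IgG-PBS they stood at 225.8 to 357.5 CPM and at 174.8 to 280.8 CPM. These were the highest libraries for H1f2, and for H2bc4 UC7-IFNa library 2, at 188.5 CPM, lay inside that range.

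Serpinb6b, an inhibitor of proteases, was among the other named genes with a negative difference. It rose with IFNa after IgG by 0.72 (edgeR adjusted p = 0.0368) and had a change of 0.05 after UC7-13D5. Its difference was -0.66 (SE 0.22), and its levels were 417.6, 374.7, 477.8 and 461.6 CPM in IgG-IFNa and 326.0, 306.6 and 409.4 CPM in UC7-IFNa, which overlapped. Serpinb9, the inhibitor of granzyme B, rose after IgG by 0.85 (edgeR adjusted p = 0.0195), and its difference was -0.54 (SE 0.22) with the gap in the starting level. Dgat1, which makes triglyceride, rose after IgG by 1.61 (edgeR adjusted p = 0.00422) and had a difference of -0.75 (SE 0.32). Crem, a repressor of cyclic AMP responses, had -0.78 (SE 0.27), with 51.9% in the induced level. S100a11, a calcium-binding protein, had -0.07 in the full fit and -0.73 without UC7-IFNa library 2, where it stood at 162.3 CPM in that library against 56.5 and 61.8 CPM in its mates.

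**Figure D5:**
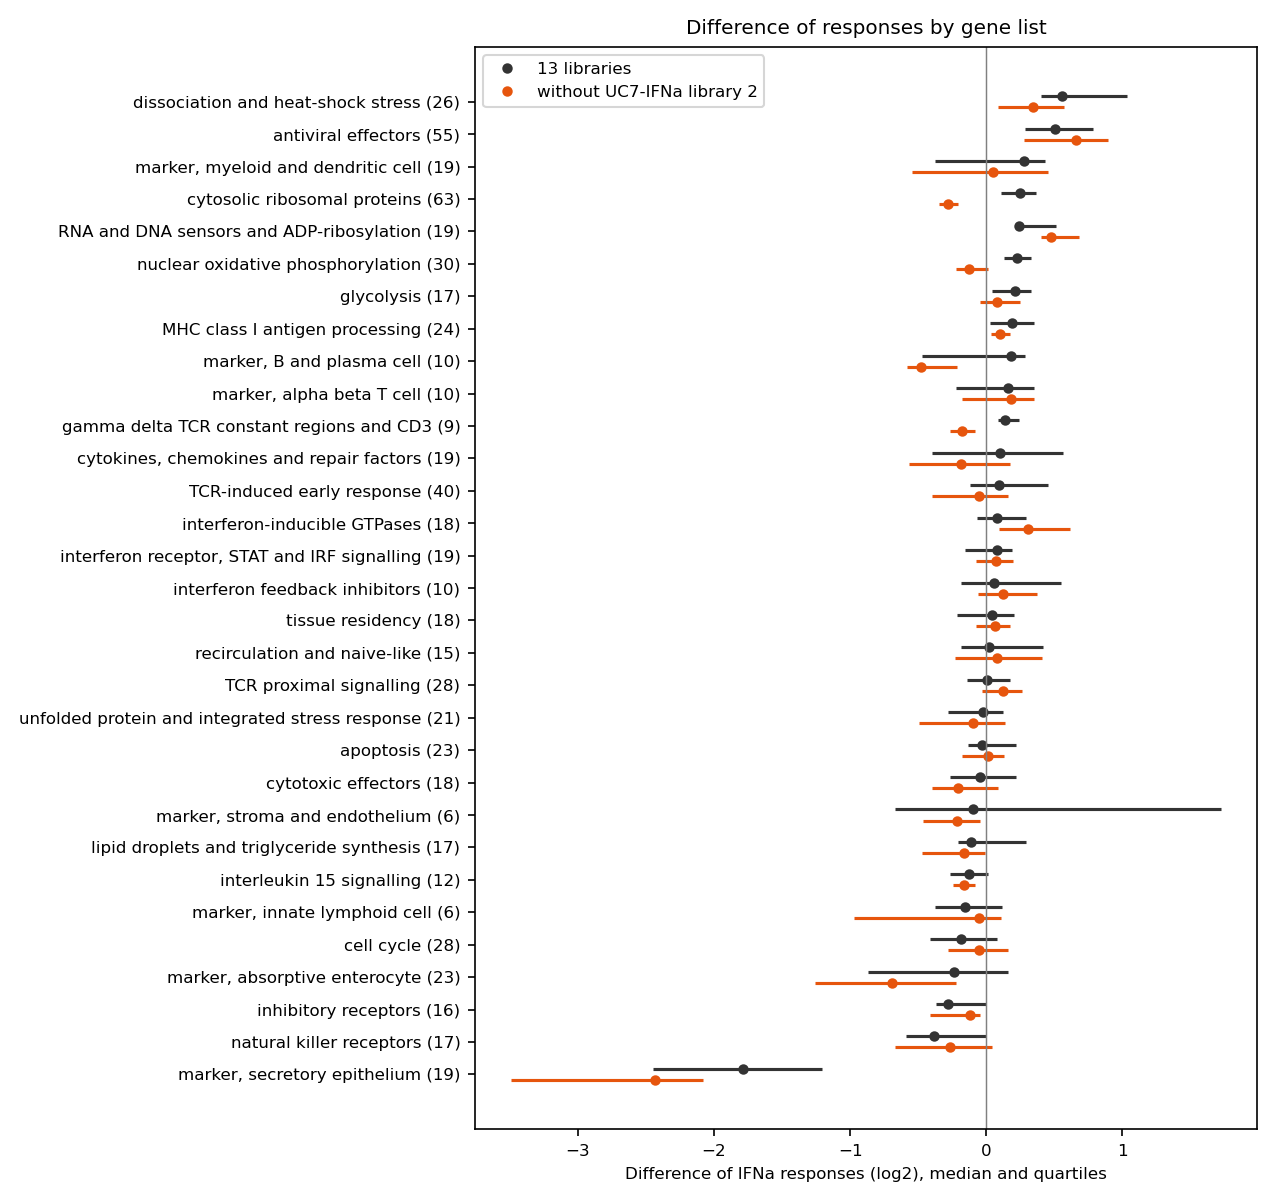
Median and quartiles of the difference of responses (log2) over the tested members of each of 31 gene lists, whose sizes are in parentheses, for all 13 libraries and without UC7-IFNa library 2. Antiviral effectors have a median of 0.50 and 0.66, secretory epithelium markers one of -1.79 and -2.43, and cytosolic ribosomal protein genes change from 0.25 to -0.28.

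The direction of cytosolic ribosomal protein genes turned without UC7-IFNa library 2. With it 57 of 63 were above 0 and the median was 0.25. Without it 1 of 63 was above 0 and the median was -0.28. Over all autosomal genes 52.3% were above 0 with the library and 49.3% without it. Nuclear genes of oxidative phosphorylation turned in the same way, from 28 of 30 above 0 to 9 of 30, while antiviral effectors stayed at 49 of 55.

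Taken alone, the induced and starting levels gave few calls. For the induced level 6 autosomal genes were higher after UC7-13D5 (0.0392%) and 5 were lower (0.0326%). The higher genes were Rac1, a small GTPase of the actin cytoskeleton, Arl8a, a lysosomal GTPase, the splicing factor Srsf9, the sorting nexin Snx20, the co-repressor Ctbp1 and 2510039O18Rik, all named after their values were seen. Their induced gaps ran from 1.59 in Ctbp1 to 2.29 in Snx20. In all 6 every UC7-PBS library also lay above every IgG-PBS library, as in 6.64% of autosomal genes, and their differences of responses, none past the threshold, ran from 0.14 in Srsf9 to 0.54 in 2510039O18Rik, with those of Srsf9 and Snx20 at -0.14 and -0.11 without UC7-IFNa library 2. The lower genes were Spp1, Capg, Ighd, Tmprss6 and Map2, of which Capg, Ighd, Tmprss6 and Map2 are named after their values were seen. Spp1, which encodes osteopontin, stood at 124.9, 128.6, 134.6 and 161.3 CPM in IgG-IFNa and at 55.3, 65.3 and 45.03 CPM in UC7-IFNa, an induced gap of -1.32 (SE 0.16, edgeR adjusted p = 0.0068). Its starting gap of -0.76 did not pass, and its difference of responses was -0.56 (SE 0.23). Without library 2 Spp1 and Capg, an actin-capping protein, were lower (0.0127%), and no gene was higher. For the starting level no gene passed with all libraries, where 534 were higher (3.49%) and 232 lower (1.51%) at an unadjusted p under 0.05, and the predicted gene Gm43461 was lower (0.00637%) without library 2.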

How the data were processed

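Per the labels' protocols, RNA of sorted cells was extracted (RNeasy) and the 13 libraries were prepared with SMART-Seq HT reagents. Per the submitters' processing notes STAR 2.7.8a, Partek and DESeq2 were used with mm39, and which step each of them served is not given in the sources used here. As for units, the authors deposited estimated counts per gene (expected counts, 34.17% not whole to a tolerance of 0.001) for 21084 genes, and a signal table of normalized counts for 11281 genes, which equals the first divided by 1 factor per library and served only as an alternative. Because fractional counts can be split between near-identical genes, paralogs such as Gbp6 and Gbp10, Ifit3 and Ifit3b, Hspa1a and Hspa1b, and the defensins are uncertain individually.

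Counts were rounded, filtered with filterByExpr by group (minimum count 10), scaled by TMM and fitted with 1 coefficient per group in edgeR 4.0.16 under R 4.3.3, by robust quasi-likelihood. Two-sided F tests were adjusted by Benjamini-Hochberg over all 15835 genes, and intervals are 95%. The members and lists were chosen with earlier results of these data known. Most genes were named by smallest p. These were up to 10 per direction in each fit, without clone names and at a mean log2 CPM of at least 3 outside the threshold. A few per list were added at an unadjusted p under 0.05. Ifit1, Ifit3, Mx1, Irf7, Isg15, Oas3, Usp18, Rtp4, Bst2, Ifi27l2a, Rnf213, Gbp10, Klrc1, Trdc, Jun and Fos were named whatever their p. The fit was tested on simulated data. Alternatives used DESeq2 1.42.0, limma 3.58.1 (log2 of the normalized value plus 1), other scalings and filters, covariates and left-out libraries. P-values measure the spread between these libraries. Total counts per library were 19867201 to 26895876, and the number of libraries limits precision. Promoter sequences came from RefSeq, and gene positions are mm39.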

Additional observations from a re-analysis of the deposited data

Results flagged for a closer look

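In IgG-IFNa, the group of 4 libraries, 94 results were checked for 1 library far from the others (gap over range above Dixon's 95% critical value, which chance exceeds in about 1 group in 20), and 4 were flagged. Slc15a2 stood at 28.72 CPM in library 1, against 7.458 to 10.14 CPM in the others. Fcgbp, a goblet cell mucus protein, stood at 45.65 CPM in library 1, against 62.09 to 65.27 CPM. Ctbp1 stood at 91.62 CPM in library 1, against 52.21 to 55.08 CPM. Nr4a3 stood at 108.6 CPM in library 3, against 77.46 to 80.46 CPM.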

How the results depend on the processing

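The difference of responses had 0 calls in either direction in edgeR under every setting except without UC7-PBS library 1 (1 lower), while DESeq2 called 2 higher and 1 lower. The antiviral median of 0.50 ranged from 0.34 to 0.66 when 1 library was left out and was 0.46 over the 40 members whose mean log2 CPM reached 3. Of the alternative values of the 93 named genes, 2473 kept their direction and side of the threshold, 32 reversed and 4, of 3 genes, passed the threshold. Ifi27l2a reversed with quality weights (-0.10), the male share (-0.33), without UC7-IFNa library 2 (-0.10), without it and IgG-IFNa libraries 3 and 4 (-0.42), without it with the male share (-0.41), without it with the replicate block (-0.27), and on the linear CPM scale (-13.71). On that scale Chga was 1.90, Ifitm3 2.702 and Ifi213 -0.75. S100a11 turned to 0.024 without IgG-IFNa libraries 3 and 4, and to 0.03, 0.07, 0.19 and 0.16 without IgG-IFNa 3, UC7-PBS 2, UC7-IFNa 1 and UC7-IFNa 3. Leaving out 1 library gave ranges of -0.73 to 0.19 for S100a11, -0.10 to 0.73 for Ifi27l2a, -0.20 to 0.0057 for Trdc (highest without IgG-PBS 2), -0.067 to 0.68 for Gbp9 and -0.033 to 0.55 for Stat2 (both lowest without UC7-IFNa 1). Of the genes called higher at the induced level, Srsf9 and Snx20 had differences of -0.071 and -0.060 with the male share, -0.15 and -0.17 with it and without UC7-IFNa library 2, -0.11 and -0.071 with the replicate block and without that library (Rac1 -0.0084), and -0.17 and -0.20 without it and IgG-IFNa libraries 3 and 4. Leaving out 1 library gave -0.15 (UC7-PBS 3) to 0.42 for Srsf9 and -0.22 (IgG-PBS 2) to 0.63 for Snx20. The cause was not tested.

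The induced level was the least stable count, 11 in the main fit. It was 119 in DESeq2 (starting level 62), 1 in limma voom, 35 with quality weights (starting level 18), 1 in the authors' normalized table, 0 with the replicate block, 22 with the male share, and 1 without IgG-IFNa libraries 3 and 4. With those 2 and UC7-IFNa library 2 left out it was 4 (starting level 11). Without UC7-IFNa library 2 it was 26 with the male share and 3 with the replicate block (starting level 2). Leaving out 1 library gave 0 (UC7-IFNa 3) to 51 (UC7-IFNa 1), with 42 without IgG-IFNa 1, 27 without UC7-PBS 3, 3 without IgG-PBS 2, 2 without UC7-PBS 2 or UC7-IFNa 2, and 1 without IgG-PBS 3, IgG-IFNa 2, 3 or 4, or UC7-PBS 1. The starting level ranged from 0 to 3 (without IgG-PBS 3).

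At an unadjusted p under 0.05, the 235 higher and 251 lower genes became 400 and 630 with quality weights and 111 and 152 in the normalized table. The lower count was 466 with no low-count filter and 378 without UC7-IFNa library 2 with the male share, and the higher count was 147 with the replicate block and 103 with the male share. Leaving out 1 library gave 173 to 492 higher (492 without UC7-IFNa 1, 417 without UC7-IFNa 3) and 214 to 475 lower (475 without UC7-IFNa 2). With 3 to 4 libraries per group, differences several times the median SE of 0.27, such as 1.03 (SE 0.30) for Rtp4, did not pass over all genes. Replicate numbers gave no clear sign of pairing: of 18 same-numbered pairs, deviations correlated at -0.53 to 0.33 and 3 exceeded 0.1. Differently numbered pairs also reached -0.54 and 0.55. Deviations centred within groups of 3 to 4 libraries are tied to each other, so this check cannot exclude a pairing.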
